A study of Mus musculus with 33 samples.

Results

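The transcripts of 32 lysosomal genes were followed through 3 sorted cell types of the bone marrow of old mice, the hematopoietic stem cells (HSCs), the granulocyte-monocyte progenitors (GMPs) and the common lymphoid progenitors (CLPs). They were found by their symbols among the 55376 gene symbols of the count tables, and all 32 were present once. By role they comprised 7 membrane proteins, 9 proteases, 10 enzymes that break down glycans and sulfated sugars, and 6 proteins of lipid breakdown. HSCs were gated as Lin-cKit+Sca1+CD34-Flk2-CD150+, CLPs by Il7ra and Flk2, and GMPs by CD34 and Fcgr among cells without Sca1. Bone marrow came from male C57BL/6 mice of 24 to 29 months, none of them with a gene deletion or transgene. Untreated old mice (O-WT) were compared with old mice whose drinking water contained nicotinamide riboside (NR), a vitamin B3 form that cells convert to NAD+, for 4 to 6 weeks (O-NR). In cohort 2, HSCs, CLPs and GMPs were each sequenced in 4 O-WT and 4 O-NR libraries, and the libraries of the 3 cell types that carried the same animal number were taken to come from the same mouse, 8 mice in all. Cohort 1 held HSCs only, in 9 libraries. These comprised 2 O-WT and 4 O-NR libraries, plus 3 O-NR-RC libraries from mice examined 2 months after NR was withdrawn, each library taken as 1 mouse. One label field of the GMP libraries names another myeloid progenitor, while their titles name GMPs, and that name is used here.

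Lysosomes are acidic organelles that digest proteins, glycans and lipids delivered by endocytosis and autophagy. Their soluble enzymes carry a mannose 6-phosphate tag that sends them from the Golgi to the lysosome, a proton pump (the V-ATPase) keeps the lumen acidic, and glycosylated membrane proteins line the inside of the membrane. Many of these genes carry an E-box in their promoter that is bound by TFEB, TFE3 and MITF, and inherited loss of single members causes lysosomal storage diseases. In blood-forming cells, lysosomal enzymes also feed the granules of myeloid cells, and in HSCs lysosomes take part in clearing mitochondria.

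HSCs and CLPs carried a marker of their gates, and GMPs were highest in a granule gene that was not part of theirs. Slamf1, which encodes the CD150 of the HSC gate, was at 72.4 ± 16.6 CPM (read counts scaled to the library total; SD, n = 8) in HSCs, against 6.68 ± 2.49 in CLPs and 4.62 ± 1.26 in GMPs. Il7r, the interleukin 7 receptor used to sort CLPs, was at 252 ± 55.7 CPM in CLPs and 3.92 ± 1.26 in HSCs. Mpo, the myeloperoxidase of primary granules, was at 17847 ± 1427 CPM in GMPs, 313 ± 85.4 in CLPs and 3.45 ± 0.981 in HSCs. Between 4792380 and 18213674 reads were counted per library of cohort 2, and between 8897256 and 23816042 in cohort 1. In bulk libraries such as these, fewer cells that make a transcript cannot be told apart from less of it per cell.

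As motif matches can show what the members share beyond their names, the window from 250 bases before to 50 after each gene's start was searched on both strands in the RefSeq promoter table (GRCm38.p6), which held 28 of the 32 members. The 6-base E-box CACGTG stood in the windows of 11 of the 28 (39.3%), against 8.09% of the 27025 genes in the table. Its 8-base palindrome TCACGTGA, which contains the E-box, stood in 5 members (17.9%) and in 304 of all genes, and CACGTGAC or its reverse complement, which overlaps both, in 9 members (32.1%) and in 2.55% of all genes. Among the 16522 protein-coding genes of the table, the class of all members, the shares were 9.18%, 1.45% and 3.3% in the same order. Lysosomal genes outside the 32 also held these motifs. The shares were 28.6%, 21.4% and 14.3% of 14 V-ATPase genes, and 22.7%, 4.55% and 18.2% of 22 other soluble hydrolases. For 26 other membrane proteins and transporters they were 11.5%, 7.69% and 7.69%. The motifs are thus not particular to the members. One stretch for each of 8 members, at least 1 of every role that had a match, is printed 5′ to 3′ on the gene's strand with the motif in capitals.
Lamp1, chr8:13159117-13159156, plus strand: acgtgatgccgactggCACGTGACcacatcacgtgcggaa
Mcoln1, chr8:3500457-3500496, plus strand: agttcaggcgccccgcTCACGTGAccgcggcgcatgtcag
Cln3, chr7:126583335-126583374, minus strand: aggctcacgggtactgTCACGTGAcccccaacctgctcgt
Ctsd, chr7:142387903-142387942, minus strand: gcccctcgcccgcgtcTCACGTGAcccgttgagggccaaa
Ctsl, chr13:64370735-64370770, minus strand: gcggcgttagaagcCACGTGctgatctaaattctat
Gaa, chr11:119267807-119267844, plus strand: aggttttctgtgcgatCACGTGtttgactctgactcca
Gla, chrX:134601210-134601249, minus strand: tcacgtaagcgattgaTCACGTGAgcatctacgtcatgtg
Sgsh, chr11:119355516-119355555, minus strand: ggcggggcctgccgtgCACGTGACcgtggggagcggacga

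Lamp1 held 4 E-boxes within its window, the nearest 15 bases before the start. Ctsa, Arsa and Naglu also had a match, and none of the 5 members in the table that were filed under lipid breakdown had one. That contrast depends on the filing, as each member was given 1 role. Arsa, the sulfatase of the lipid sulfatide, was filed with the enzymes of glycans and sulfated sugars. A match describes these letters only, since binding was not measured. The 11 members with an E-box were not of 1 expression pattern. In O-WT, 5 of them had their highest mean in HSCs, 1 in CLPs and 5 in GMPs, while of the 17 members without one, 3 were highest in HSCs, 1 in CLPs and 13 in GMPs.

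Members were detected in all 3 cell types, and GMPs had the most. All 32 passed the filter of more than 3 CPM in every comparison. For the comparisons within a single cell type of cohort 2, this took 4 of its 8 libraries. Gla lay near that limit, at 3.02 to 5.13 CPM in HSCs and 2.69 to 7.45 CPM in CLPs. Ctss fell to 1.57 CPM in HSC O-NR replicate 2. The filter cannot tell values this low from background reads. As a share of all counted reads the members together took 0.158% to 0.180% in the 8 HSC libraries, 0.125% to 0.153% in CLPs and 0.203% to 0.238% in GMPs, so that the 3 cell types did not overlap. Scaled by the trimmed mean of M values (TMM), their summed level lay between 1145 and 2198 CPM for HSCs, 840 and 1551 for CLPs, and 2148 and 2816 for GMPs, and HSCs then overlapped with both others. In O-WT the mean was highest in GMPs for 21 members, in HSCs for 8 and in CLPs for 3. O-NR mice gave 20, 9 and 3, with the same cell type highest for 30 of the 32 and the same order of all 3 for 25.

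**Figure D1:**
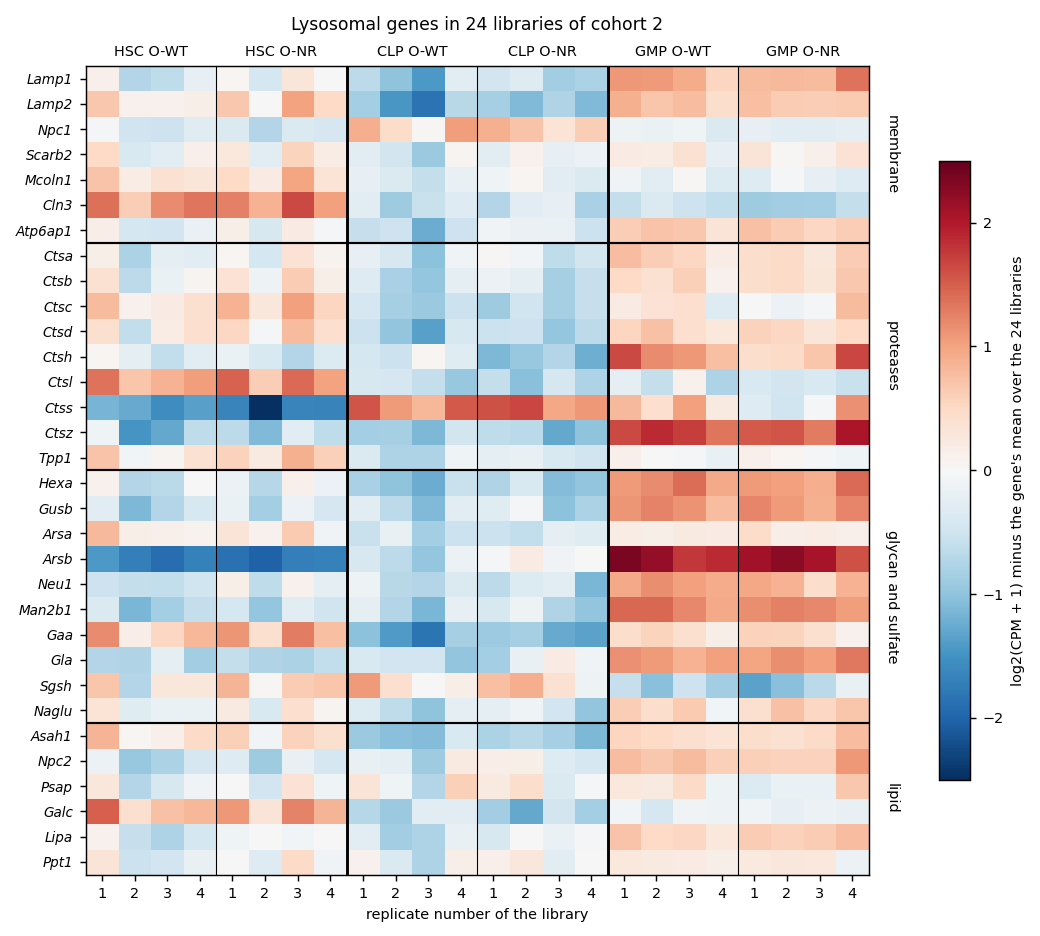
Heatmap of log2(CPM + 1) of the 32 members, grouped by role and centred per gene, in the 24 libraries of cohort 2. Columns are libraries by cell type and treatment, and the GMP columns are the highest for most rows, with Cln3, Ctsl and Galc highest in HSCs and Npc1 in CLPs.

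More members were lower than higher in HSCs when set against GMPs. Between HSCs and GMPs of O-WT mice, 16 members were lower and 5 higher in HSCs at an adjusted p below 0.05 (edgeR's quasi-likelihood test, Benjamini-Hochberg over all genes), where 22.6% of the 20044 genes tested were lower and 21.5% higher. The median log2 fold change was −0.45 over the members and 0.31 over all genes. In O-NR mice 15 were lower and 8 higher, where 24.4% of 18080 genes were lower and 22.0% higher, with medians of −0.26 and 0.12. Called in the same direction in both treatments were 20 members, of 24 called in either, and none was called in opposite directions. The matching share over all genes was not counted, here or for the comparisons of the next paragraphs. These counts therefore do not set the members apart from other genes.

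The contrast between CLPs and GMPs was wider. In O-WT, 23 members were lower and 3 higher in CLPs, where 28.6% of all genes were lower and 32.2% higher. The members' median was −0.98 against 0.28 over all genes. In O-NR, 24 were lower and 3 higher, where 26.1% of all genes were lower and 23.9% higher, with medians of −0.87 and 0.15. The 2 treatments shared 26 of the 27 members called in either.

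HSCs exceeded CLPs for many members. In O-WT, 14 were higher and 3 lower in HSCs, where 19.9% of all genes were higher and 10.4% lower, with a median of 0.41 for the members and −0.08 for all genes. O-NR gave 15 higher and 5 lower, where 22.6% and 18.3% of all genes were so called, with medians of 0.43 and −0.08. Both treatments shared 16 of the 21 called in either.

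The summed level of the members differed between libraries of a group, and so did that of a second set of genes. For 1736 receptor genes of the nose (olfactory and vomeronasal), which blood cells are not known to use, CPM summed to between 1709 and 3238 in HSCs, 2203 and 4781 in CLPs and 1055 and 2422 in GMPs. In 6 of the 6 groups of cohort 2, the library with the lowest summed level of the members had the highest sum of these receptor genes. Both sums were divided by the same TMM-scaled total. As a share of all counted reads, the members were lowest in another library in HSC O-WT (replicate 4, 0.158%) and CLP O-WT (replicate 2, 0.138%). The same held for CLP O-NR (replicate 4, 0.125%) and GMP O-NR (replicate 1, 0.206%). The match in every group therefore depends on the scaling. With the log2 share of reads on receptor genes as a covariate, a fit chosen after seeing the data, the medians of all genes lay between −0.04 and 0.05 in O-WT. Those of the members were 0.17 for HSCs against CLPs, −0.17 for HSCs against GMPs and −0.58 for CLPs against GMPs. Called in that fit were 13 higher and 7 lower, 8 higher and 14 lower, and 4 higher and 17 lower members, in the same order. Of all genes called in it, 59.1%, 51.5% and 40.4% were higher. What share of the genes tested was called in that fit is not given here. Under this covariate and under every scaling tried, 14, 18 and 20 members of the 3 O-WT comparisons kept their call and direction.

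Scaling also set the balance of calls over all genes. Of the genes called between CLPs and GMPs of O-WT mice, 52.9% were higher in CLPs with TMM, 76.5% with upper quartile scaling, 77.7% with library totals alone and 40.4% with the covariate. For HSCs against GMPs the share higher in HSCs was 48.8%, 62.1%, 67.2% and 51.5%, and for HSCs against CLPs it was 65.7%, 48.8%, 54.8% and 59.1%. Upper quartile scaling and library totals gave 72.6% and 68.9% in place of 47.8% for CLPs against GMPs of O-NR mice, and 59.0% and 62.8% in place of 47.5% for HSCs against GMPs. The median of all genes shifted by up to 0.51 (CLPs against GMPs of O-WT mice, library totals). Among the scalings the gap between the members' median and that of all genes was stable, from −1.26 to −1.28 in that comparison, but it was −0.54 with the covariate.

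**Figure D2:**
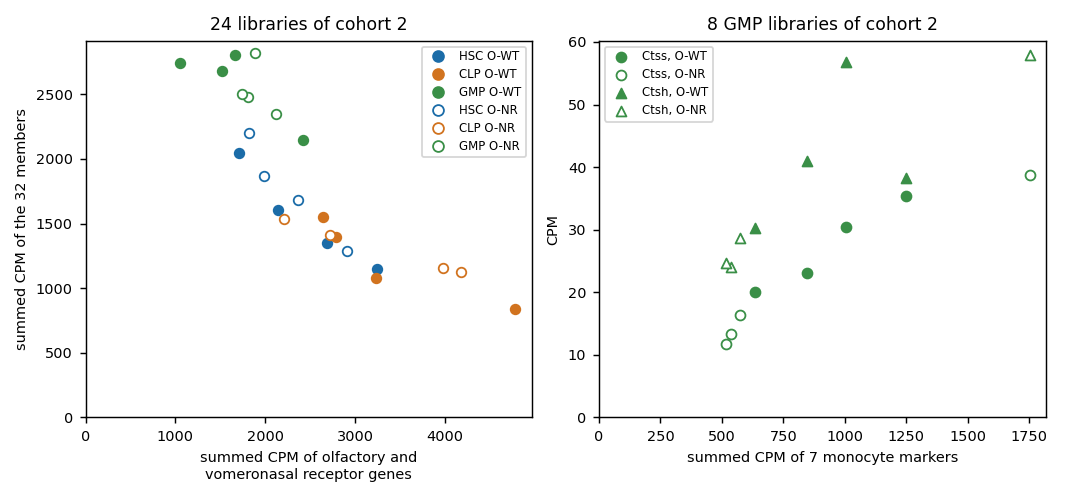
Left, summed CPM of the 32 members (vertical) against summed CPM of the olfactory and vomeronasal receptor genes (horizontal) in the 24 libraries of cohort 2, with the library lowest in members being highest in receptor genes in each of the 6 groups. Right, CPM of Ctss and Ctsh (vertical) against the summed CPM of 7 monocyte markers (horizontal) in the 8 GMP libraries, where the O-NR library with 1754 CPM of markers stands to the right of the others.

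Of the membrane proteins, 4 of 7 were lower and 1 higher in CLPs than in GMPs of O-WT mice, where 28.6% of all genes were lower and 32.2% higher. Lamp2, which with Lamp1 makes up much of the sugar coat inside the lysosomal membrane and also serves in chaperone-mediated autophagy, was at 133, 90.5, 89.9 and 92.5 CPM in the O-WT HSC libraries. Its CLP libraries read 45.6, 29.7, 22.6 and 50.9 CPM, and its GMP libraries 155, 136, 143 and 113 CPM. All CLP libraries lay below all others, and the HSC library of replicate 1 reached into the GMP range. Lamp2 was higher in HSCs than in CLPs by 1.44 ± 0.19 on the log2 scale (SE, adjusted p = 4.52e-07), and its difference between HSCs and GMPs was −0.43 ± 0.18 (adjusted p = 0.0556). Lamp1 was at 86.1 ± 24.3 CPM in HSCs, with 62.1 ± 20.97 in CLPs and 205 ± 34.1 in GMPs (here and below SD over 4 libraries), lower in HSCs than in GMPs by a log2 difference of −1.26.

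Cln3, the membrane protein lost in juvenile neuronal ceroid lipofuscinosis, was highest in HSCs. It was at 47.4 ± 10.7 CPM in O-WT HSCs, 14.5 ± 2.78 in CLPs and 14.2 ± 1.24 in GMPs, higher in HSCs than in GMPs by 1.74 ± 0.17 (adjusted p = 1.89e-09) and than in CLPs by 1.68 ± 0.17 (adjusted p = 6.3e-09). Mcoln1, the calcium release channel of the lysosome, was also highest in HSCs, at 46.2 ± 7.79 CPM, with 27.3 ± 3.64 in CLPs and 30.5 ± 3.74 in GMPs. Npc1, which exports cholesterol from the lysosome, was the 1 membrane protein highest in CLPs. It stood at 78.2 ± 23.8 CPM there, 38.8 ± 6.48 in HSCs and 42.9 ± 3.36 in GMPs, above HSCs and GMPs by log2 differences of 1.02 and 0.88 in size. Scarb2, the receptor that carries glucocerebrosidase to lysosomes, differed least of the 7. Its call between CLPs and GMPs of O-WT mice (−0.50 ± 0.18, adjusted p = 0.0172) turned to 0.05 with the receptor gene covariate. Atp6ap1, an accessory subunit of the proton pump, was at 34.1 ± 7.74 CPM in HSCs, compared with 24.3 ± 5.48 in CLPs and 60.3 ± 7.25 in GMPs.

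**Figure D3:**
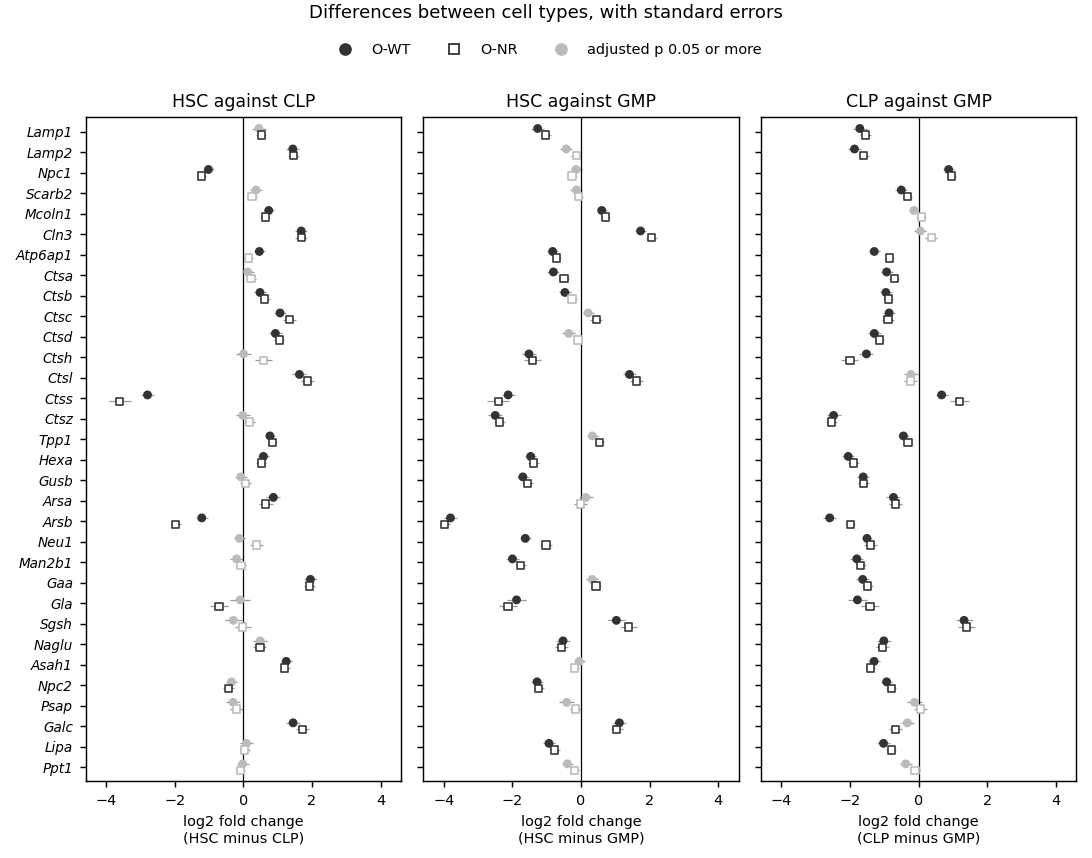
Log2 fold change of each member between cell types, in 3 panels for HSCs against CLPs, HSCs against GMPs and CLPs against GMPs, with standard errors as bars. Filled circles are O-WT and open squares O-NR, grey marks an adjusted p of 0.05 or more, and the marks of the 2 treatments lie on the same side of 0 for each member called in both.

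The proteases split between a cathepsin near absent from HSCs and cathepsins that HSCs kept. Ctss (cathepsin S) trims the invariant chain of MHC class II in antigen-presenting cells. It was at 7.09, 6.49, 5.13 and 6.03 CPM in the O-WT HSC libraries, 52.6, 36.5, 30.8 and 51.3 CPM in CLPs, and 30.5, 23.03, 35.4 and 20.03 CPM in GMPs. No HSC library came near the other 2 cell types, whose ranges overlapped. It was lower in HSCs than in CLPs by a log2 difference of −2.80 ± 0.20 (adjusted p = 4.31e-12) and than in GMPs by −2.12 ± 0.19 (adjusted p = 4.72e-10). CLPs exceeded GMPs by 0.67 ± 0.18 (adjusted p = 0.00275).

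Ctsz (cathepsin Z, a carboxypeptidase) was a transcript of GMPs, at 131, 152, 138 and 106 CPM in O-WT. HSCs had 38.1, 14.3, 16.3 and 26.2 CPM and CLPs 22.5, 22.6, 18.3 and 29.5 CPM. Each GMP library stood above every HSC and CLP library, and HSCs and CLPs overlapped (log2 difference −0.02 ± 0.20, adjusted p = 0.942). The difference to GMPs was −2.5 ± 0.20 in HSCs (adjusted p = 5.12e-11) and −2.48 ± 0.20 in CLPs (adjusted p = 1.97e-10). Ctsh (cathepsin H, an aminopeptidase) showed the same order, with 14.5 ± 2.87 CPM in HSCs, against 14.1 ± 2.83 in CLPs and 41.6 ± 11.1 in GMPs.

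Ctsl (cathepsin L), an endopeptidase, was instead highest in HSCs, at 34.8 ± 7.15 CPM in O-WT against 10.9 ± 1.97 in CLPs and 13.1 ± 3.86 in GMPs. HSCs exceeded CLPs by 1.63 ± 0.20 (adjusted p = 2.15e-07) and GMPs by 1.41 ± 0.20 (adjusted p = 9.68e-07). Ctsd, the aspartic protease of the lysosome, was at 55.7 ± 16.1 CPM in HSCs, with 28.8 ± 8.48 in CLPs and 71.0 ± 9.77 in GMPs. Ctsc, which activates the serine proteases of granules, was at 52.0 ± 11.5, 24.3 ± 4.21 and 44.8 ± 9.77 CPM, and its difference between HSCs and GMPs was 0.21 ± 0.16 (adjusted p = 0.293). Ctsb was at 95.1 ± 27.8, 66.8 ± 16.8 and 131 ± 18.5 CPM, and Ctsa, which also protects the sialidase and β-galactosidase from degradation, at 46.6 ± 12.1, 42.1 ± 11.1 and 81.1 ± 13.8 CPM. Tpp1, a tripeptidyl peptidase, was at 55.8 ± 14.2 CPM in HSCs, compared with 32.01 ± 7.73 in CLPs and 44.1 ± 4.01 in GMPs, and its call between CLPs and GMPs (−0.44 ± 0.16) turned to 0.02 with upper quartile scaling and to 0.05 with library totals.

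**Figure D4:**
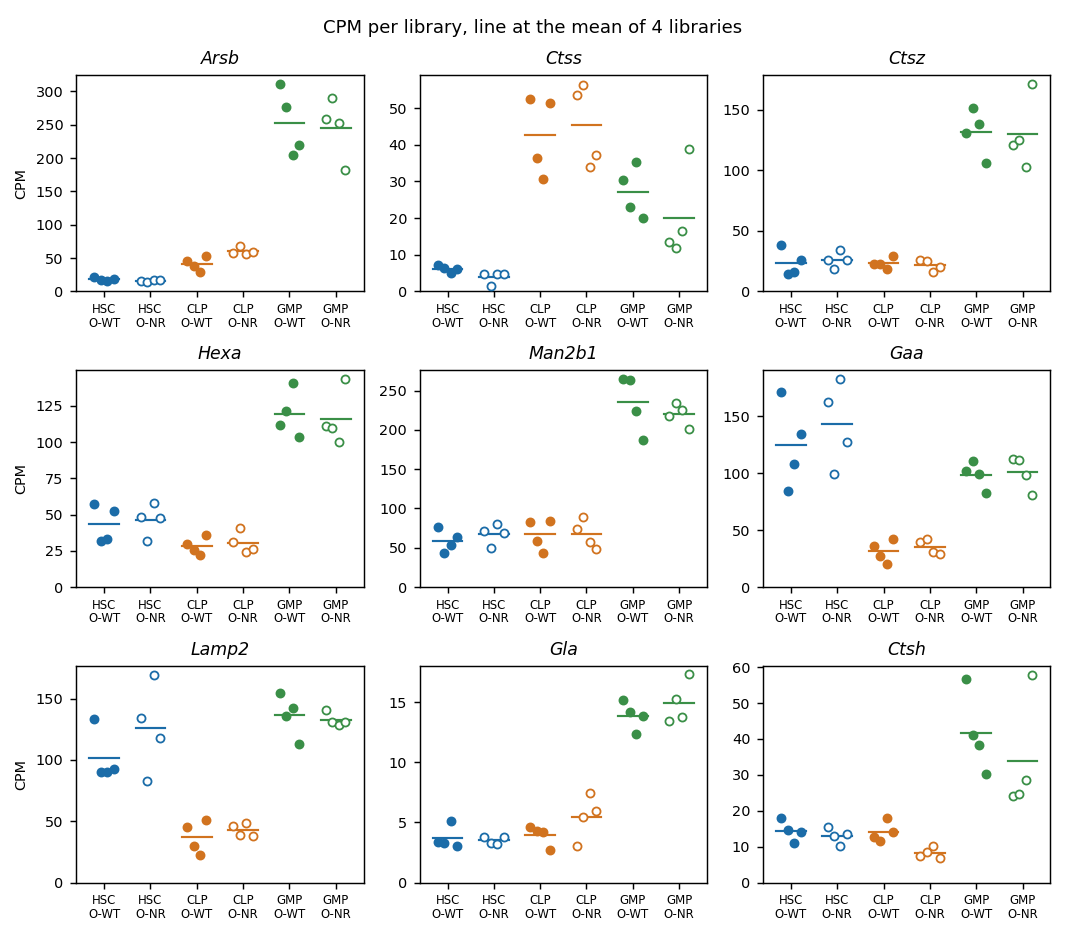
CPM of Arsb, Ctss, Ctsz, Hexa, Man2b1, Gaa, Lamp2, Gla and Ctsh in each library of cohort 2, by cell type and treatment. Arsb reached 310.4 CPM in a GMP library and stayed at or below 21.3 CPM in every HSC library, while Gaa was highest in HSCs and Ctss in CLPs.

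Enzymes of glycan and sulfate breakdown differed mainly from GMPs. In O-WT, 9 of the 10 were lower in CLPs than in GMPs and the other was higher, and 7 were lower and 1 higher in HSCs than in GMPs. Of all genes, 28.6% were lower and 32.2% higher in CLPs than in GMPs, and 22.6% lower and 21.5% higher in HSCs. Between HSCs and CLPs 3 were higher and 1 lower in HSCs, where 19.9% and 10.4% of all genes were so called. Arsb, the sulfatase that acts on dermatan and chondroitin sulfate, had the widest range of all members. It read 21.3, 17.5, 15.2 and 17.96 CPM in O-WT HSCs, 44.9, 37.5, 29.9 and 53.5 CPM in CLPs, and 310.4, 276, 205 and 219 CPM in GMPs. The 3 cell types did not overlap, with HSCs below CLPs and CLPs below GMPs. The log2 difference was −3.80 ± 0.19 between HSCs and GMPs (adjusted p = 5.94e-15), −2.59 ± 0.18 between CLPs and GMPs (adjusted p = 8.55e-12) and −1.21 ± 0.18 between HSCs and CLPs (adjusted p = 4.23e-06).

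Hexa, the α subunit of β-hexosaminidase, was at 57.0, 31.4, 32.9 and 52.5 CPM in O-WT HSCs, 29.8, 25.8, 21.9 and 35.8 CPM in CLPs, and 112, 122, 141 and 104 CPM in GMPs. GMPs lay above both others, which overlapped in part, and HSCs were higher than CLPs by 0.58 ± 0.17 (adjusted p = 0.00955) and lower than GMPs by a difference of −1.47 ± 0.17 (adjusted p = 3.79e-08). Man2b1, the α-mannosidase that trims N-glycans, was at 75.9, 43.4, 53.4 and 63.9 CPM in HSCs, 82.7, 58.0, 43.8 and 83.9 CPM in CLPs, and 265, 264, 224 and 188 CPM in GMPs. Its HSC and CLP values ran through each other and the GMP values stood apart, with a difference of −2.0 ± 0.19 between HSCs and GMPs (adjusted p = 8.91e-10).

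Gaa, the acid α-glucosidase that degrades glycogen, followed another order. It read 171, 84.0, 108 and 135 CPM in O-WT HSCs, 36.3, 27.5, 20.6 and 42.0 CPM in CLPs, and 102, 111, 99.1 and 83.0 CPM in GMPs. HSCs and GMPs overlapped and CLPs lay below both. HSCs exceeded CLPs by 1.95 ± 0.19 (adjusted p = 2.06e-09), and the difference between HSCs and GMPs was 0.32 ± 0.18 in O-WT (adjusted p = 0.141) and 0.44 ± 0.14 in O-NR (adjusted p = 0.0143). Gla, the α-galactosidase A lost in Fabry disease, was at 3.40, 3.33, 5.13 and 3.02 CPM in HSCs, 4.59, 4.27, 4.24 and 2.69 CPM in CLPs, and 15.2, 14.2, 12.4 and 13.8 CPM in GMPs. GMPs were above both others by log2 differences of 1.88 and 1.78 in size.

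Gusb (β-glucuronidase) and Neu1 (a sialidase) had the same order as Man2b1. Gusb was at 44.9 ± 11.5 CPM in O-WT HSCs, 46.7 ± 12.2 in CLPs and 145 ± 19.1 in GMPs, and Neu1 at 15.2 ± 0.674, 16.4 ± 3.56 and 47.2 ± 3.77 CPM. Naglu, which acts on heparan sulfate, was at 14.5 ± 3.24, 10.2 ± 2.54 and 20.9 ± 4.67 CPM. Arsa, the sulfatase of sulfatide, was at 16.4 ± 4.66, 8.74 ± 1.86 and 14.8 ± 0.365 CPM, lower in CLPs than in both others. Sgsh, which removes sulfate groups in the same heparan sulfate pathway as Naglu, was the 1 enzyme of this class lowest in GMPs, with 16.7 ± 6.41 CPM in HSCs, against 19.96 ± 7.49 in CLPs and 8.09 ± 1.54 in GMPs (CLPs against GMPs 1.33 ± 0.25, adjusted p = 9.22e-05).

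Among the lipid proteins, Galc was highest in HSCs, Asah1 was lowest in CLPs, and Psap and Ppt1 passed the test in none of the 3 comparisons of either treatment. Galc, the galactosylceramidase, was at 43.8 ± 15.4 CPM in O-WT HSCs, 15.5 ± 3.61 in CLPs and 19.97 ± 2.31 in GMPs, higher in HSCs than in CLPs by 1.45 ± 0.19 (adjusted p = 8.4e-07). Asah1, the acid ceramidase, was at 50.4 ± 13.3 CPM in HSCs, with 20.8 ± 5.35 in CLPs and 51.9 ± 3.25 in GMPs. Npc2, which hands cholesterol to Npc1, was at 32.5 ± 8.62, 40.7 ± 12.4 and 78.5 ± 4.98 CPM, so that Npc1 and Npc2 were highest in different cell types. Lipa, the acid lipase for cholesteryl esters, was at 18.7 ± 5.45, 17.2 ± 4.24 and 35.5 ± 4.67 CPM.

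Psap encodes the precursor of the saposins, small proteins that present sphingolipids to their enzymes. It was at 172 ± 51.9 CPM in O-WT HSCs, 209 ± 77.2 in CLPs and 228 ± 38.6 in GMPs. With the receptor gene covariate its differences were −0.57 ± 0.11 for HSCs against CLPs (adjusted p = 0.000173) and 0.57 ± 0.15 for CLPs against GMPs (adjusted p = 0.00567), so the finding of no call rests on the fit. Ppt1, a thioesterase that removes palmitate from proteins, was at 64.8 ± 19.3, 64.8 ± 18.5 and 84.8 ± 2.82 CPM. Divided by the summed length of each gene's exons, Psap had the highest level of the 32 in HSCs (66.1 ± 16.8 CPM per kb, n = 8) and in CLPs (75.9 ± 21.8). In GMPs, Ctsz (90.8 ± 15.9 CPM per kb), Psap (78.5 ± 20.2) and Lamp1 (77.6 ± 13.6) led. The differences among these 3 were smaller than their spread. Gla was lowest in HSCs (1.11 ± 0.204 CPM per kb), and Galc, whose exons have the greatest summed length, was lowest in CLPs (0.932 ± 0.239) and GMPs (1.35 ± 0.107).

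Exons of 14 members overlap those of other genes in the Gencode M21 annotation of GRCm38, among them Ctsz, Hexa, Arsb, Cln3, Ctsl, Npc1, Sgsh, Galc and Lamp1. For 13 of the 14 the neighbour is on the opposite strand. The strand setting of the counting is not given in the sources used here, so a part of these counts could belong to the neighbours. Lamp2, Ctss, Gaa, Man2b1, Gla, Ctsh and Psap were among the 18 members without such an overlap. Arsb lies at chr13:93771630-93943016, Ctss at chr3:95526786-95556403, Ctsz at chr2:174427493-174439039 and Ctsh at chr9:90054152-90076089, each a protein-coding gene counted over its exons.

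Most further lysosomal genes called against GMPs were also lower. Of 133 such genes in 6 hand-written lists, 126 were tested in O-WT, and 54 were lower and 20 higher in HSCs than in GMPs, where 22.6% of all genes were lower and 21.5% higher, with a median log2 difference of −0.33. In CLPs, 72 were lower and 18 higher than in GMPs, where 28.6% of all genes were lower and 32.2% higher, with a median of −0.54. Of 20 subunits and assembly factors of the V-ATPase, 12 were lower and 1 higher in HSCs than in GMPs, and 16 were lower and 3 higher in CLPs. Atp6ap2, the partner of Atp6ap1, was at 18.3 ± 6.57 CPM in HSCs, compared with 14.4 ± 3.45 in CLPs and 91.2 ± 7.86 in GMPs. Tcirg1, a membrane subunit of the pump, was at 43.5 ± 8.01 CPM in HSCs and 112 ± 24.8 in GMPs, and Atp6v0c, the subunit of its rotor, at 16.3 ± 3.03 CPM in CLPs and 59.9 ± 9.28 in GMPs.

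Of 20 genes that tag and sort lysosomal enzymes, 10 were lower and 1 higher in HSCs than in GMPs, and 16 were lower and 1 higher in CLPs. Over all genes, 22.6% were lower and 21.5% higher in HSCs, and 28.6% lower and 32.2% higher in CLPs. Igf2r, the large mannose 6-phosphate receptor, was the exception, at 85.0 ± 19.0 CPM in HSCs and 15.5 ± 3.29 in GMPs. Ap3s1, a subunit of the AP-3 adaptor, was at 8.18 ± 2.60 CPM in HSCs, against 13.7 ± 3.95 in CLPs and 155 ± 15.98 in GMPs. Sort1, a sorting receptor, was at 40.4 ± 8.74 CPM in CLPs and 167 ± 22.6 in GMPs.

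Of 21 regulators, 7 were lower and 3 higher in HSCs than in GMPs, and 13 were lower and 1 higher in CLPs. The shares over all genes were 22.6% lower and 21.5% higher in HSCs, and 28.6% lower and 32.2% higher in CLPs. Tfec, a relative of TFEB that is found in myeloid cells, was at 33.3 ± 9.32 CPM in HSCs, with 5.43 ± 0.963 in CLPs and 63.1 ± 15.7 in GMPs. Tfeb was at 9.03 ± 1.24, 11.9 ± 2.83 and 11.1 ± 1.65 CPM and Tfe3 at 18.9 ± 2.81, 16.6 ± 2.04 and 18.5 ± 3.84 CPM, and neither passed the test in any of the 3 comparisons of O-WT mice. Both are named for their role, outside the rule for named genes. Bhlhe40, a transcriptional repressor, was at 63.4 ± 45.4 CPM in HSCs and 8.11 ± 1.10 in GMPs. Rragb, a GTPase through which lysosomes report amino acids to mTORC1, was at 15.3 ± 4.47 CPM in HSCs and 5.09 ± 0.616 in GMPs, and Lamtor2, which anchors the Rag GTPases, at 11.7 ± 4.52 CPM in CLPs and 45.3 ± 3.65 in GMPs.

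Other hydrolases were less one-sided. Of 30 tested, 11 were lower and 7 higher in HSCs than in GMPs, and 15 lower and 6 higher in CLPs. Over all genes, 22.6% were lower and 21.5% higher in HSCs, and 28.6% lower and 32.2% higher in CLPs. The cathepsins Ctsf (35.5 ± 11.8 against 4.58 ± 0.405 CPM) and Ctsw (13.1 ± 3.52 against 1.84 ± 0.679 CPM) were higher in HSCs than in GMPs, and Lgmn, an asparaginyl endopeptidase, was at 20.7 ± 5.88 CPM in CLPs and 2.26 ± 0.255 in GMPs. Of 30 other membrane proteins and transporters, 11 were lower and 7 higher in HSCs, and 8 lower and 7 higher in CLPs, and the shares in CLPs did not exceed those over all genes. Mcoln2, a relative of Mcoln1, was at 34.1 ± 7.55 CPM in HSCs, compared with 31.3 ± 6.68 in CLPs and 5.75 ± 2.03 in GMPs. Tpcn1, a cation channel, was at 40.2 ± 9.65 CPM in HSCs and 94.3 ± 5.53 in GMPs, and Cd63, a tetraspanin of late endosomes and granules, at 6.79 ± 3.00 CPM in CLPs and 176 ± 31.3 in GMPs.

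Of 5 cathepsin inhibitors tested, 3 were lower and 1 higher in HSCs than in GMPs and 4 were lower in CLPs. The shares over all genes were 22.6% lower and 21.5% higher in HSCs, and 28.6% lower in CLPs. Cst7 (cystatin F), an inhibitor of cathepsins in immune cells, was at 1.24 ± 0.502 CPM in HSCs, against 28.01 ± 9.11 in CLPs and 118 ± 12.3 in GMPs. Serpinb1a, which inhibits granule proteases, was at 14.9 ± 5.47, 71.9 ± 23.8 and 206 ± 7.85 CPM.

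Few members differed with NR in any cell type. In the comparisons of O-NR with O-WT, a gene was called at an unadjusted p below 0.01, and no member passed an adjusted p of 0.05 in edgeR's quasi-likelihood test. In HSCs of cohort 2, 0 members were called, where 0.777% of 17364 genes were, and 5 had an unadjusted p below 0.05. What share of all genes lay below 0.05 is not given, here or for GMPs, so such counts do not set the members apart. The O-NR mean was above O-WT for 23 members and below for 9, and the log2 fold change was within 0.5 of 0 for 31 of 32. The exception was Ctss, with 7.09, 6.49, 5.13 and 6.03 CPM in O-WT and 4.75, 1.57, 4.76 and 4.64 CPM in O-NR. All O-NR libraries were below all O-WT ones, as was the case for no other member, and 1.21% of all genes did not overlap between the groups. Its log2 fold change was −0.78 ± 0.34 (adjusted p = 0.995), and −0.58 without O-NR replicate 2. The other 4 were Neu1 (0.35), Lamp1 (0.25) and Ctsc (0.23), higher in O-NR, and Npc1 (−0.22), lower, all with an adjusted p of 0.995.

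In CLPs, 1 member was called, Ctsh, where 0.412% of 19909 genes were. It read 12.6, 11.7, 18.1 and 14.04 CPM in O-WT and 7.51, 8.52, 10.2 and 6.89 CPM in O-NR. Each O-NR library was below each O-WT library, as 2 members and 2.32% of all genes did not overlap between these groups. The log2 fold change was −0.86 ± 0.27 (adjusted p = 1). Without O-WT replicate 3 it was −0.65, and without O-NR replicate 1 it was −0.82, and neither was called. Replicate 3 of O-WT, the library with the most Ctsh, also had the most receptor gene reads of the cohort (4781 CPM) and the lowest summed level of the members (840 CPM).

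As cathepsins are abundant in antigen-presenting and myeloid cells, the markers of these were summed beside Ctsh. The 9 dendritic cell markers summed to 483, 326, 349 and 558 CPM in O-WT CLPs and 443, 448, 312 and 461 CPM in O-NR CLPs, and the 7 monocyte markers to 102, 81.6, 105 and 100.3 CPM and 87.6, 87.8, 90.6 and 107 CPM. The groups overlapped in both. The 8 neutrophil markers summed to 153, 47.4, 106 and 192 CPM in O-WT and 146, 119, 17.9 and 28.9 CPM in O-NR, again with overlap. Their part in the Ctsh difference was not tested.

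Arsb in CLPs moved the other way, at 44.9, 37.5, 29.9 and 53.5 CPM in O-WT and 58.4, 68.9, 56.4 and 59.0 CPM in O-NR. The lowest O-NR library was above the highest O-WT library. The log2 fold change was 0.47 ± 0.18 (adjusted p = 1), with an unadjusted p between 0.01 and 0.05, and past 0.01 under other settings. In HSCs the same gene gave −0.23 ± 0.14 and in GMPs −0.04 ± 0.14. The difference between its NR effect in HSCs and in CLPs was −0.70 ± 0.30 (adjusted p = 1). Over CLPs, 19 members were above and 13 below their O-WT mean, 31 within 0.5 of 0 on the log2 scale.

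In GMPs, 0 members were called, where 0.986% of 13486 genes were, and 2 had an unadjusted p below 0.05, Cln3 (−0.31) and Neu1 (−0.23). All 32 log2 fold changes were within 0.5 of 0, 15 positive and 17 negative, and none of the members separated the groups, as 2.10% of all genes did. Replicate 4 of O-NR stood apart from the other 3. Ctss read 30.5, 23.03, 35.4 and 20.03 CPM in O-WT and 13.4, 11.8, 16.4 and 38.8 CPM in O-NR. Ctsh read 56.8, 41.1, 38.2 and 30.3 CPM in O-WT and 24.1, 24.7, 28.7 and 57.9 CPM in O-NR. Psap read 235, 227, 272 and 178 CPM in O-WT and 154, 173, 173 and 310.4 CPM in O-NR. For all 3 genes, O-NR replicates 1 to 3 lay below every O-WT library and replicate 4 above every O-WT library.

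The 7 monocyte markers (Csf1r, Ly6c2, Ccr2, F13a1, Ms4a6c, Cx3cr1 and Klf4) moved with them. They summed to 1005, 845, 1248 and 633 CPM in the O-WT GMP libraries and to 538, 516, 574 and 1754 CPM in O-NR. The same library was thus the highest of the 8, and the other O-NR libraries were the lowest. It was also at the edge of the 8 in other marker sums. Its dendritic cell (119 CPM), neutrophil (22.0 CPM) and mast cell and basophil (175 CPM) markers were the lowest. Its B and plasma cell markers (140 CPM) were the highest. The macrophage, erythroid, HSC, CLP and GMP marker sums lay within the range of the other libraries. Without O-NR replicate 4, 3 members were called at an unadjusted p below 0.01. They were Ctss at −0.97 ± 0.18 (adjusted p = 0.0474), Ctsh at −0.69 ± 0.15 (adjusted p = 0.131) and Psap at −0.45 ± 0.11 (adjusted p = 0.179). With it their log2 fold changes were −0.45, −0.31 and −0.17, with an adjusted p of 0.997 for each. Replicate 4 was singled out by the values of these same genes, so leaving it out favours their calls. The share of all genes called without it is not given here. What part the monocyte markers had in these differences was not tested.

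**Figure D5:**
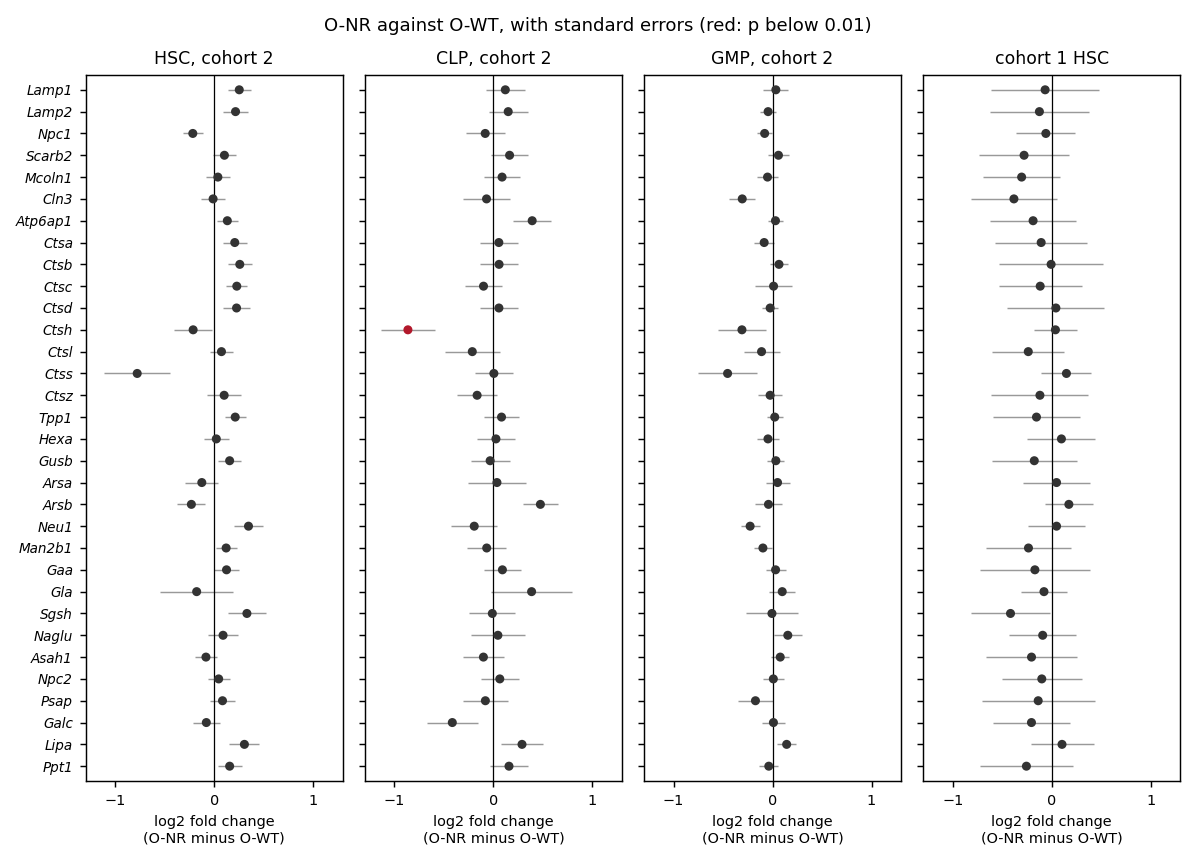
Log2 fold change of O-NR against O-WT with standard errors for the 32 members, in 4 panels for HSCs, CLPs and GMPs of cohort 2 and HSCs of cohort 1. Red marks an unadjusted p below 0.01, which Ctsh in CLPs alone reached at −0.86. Ctss in HSCs of cohort 2, at −0.78, is the 1 other mark more than 0.5 from 0.

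No member was called for a difference in the NR effect between cell types. Between HSCs and CLPs 0.403% of 22573 genes were called, between HSCs and GMPs 0.146% and between CLPs and GMPs 0.403%. Besides Arsb, Neu1 had an unadjusted p below 0.05, with an NR effect higher in HSCs than in GMPs by 0.68 ± 0.29 (adjusted p = 1).

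Cohort 1 gave no called member either. There 0.0480% of 33350 genes were called for O-NR against O-WT, 0.0360% for O-NR-RC against O-NR and 0.0780% for O-NR-RC against O-WT. All 32 members were within 0.5 of 0 on the log2 scale in each of the 3, and no member had an unadjusted p below 0.05. Libraries of 1 group differed in the members' summed level, which was 1095, 1115, 1855 and 2050 CPM in O-NR and 2535, 1025 and 1091 CPM in O-NR-RC, against 1807 and 1555 CPM in O-WT. Without O-NR-RC replicate 1, the highest of them, 0 members were called, but the members' median log2 fold change went from 0.01 to −0.49 for O-NR-RC against O-NR and from −0.13 to −0.67 for O-NR-RC against O-WT. Ctss read 9.38 and 6.92 CPM in O-WT, 8.17, 8.85, 10.4 and 8.70 CPM in O-NR, and 12.6, 7.47 and 10.9 CPM in O-NR-RC. Its O-NR libraries lay among the O-WT ones or above, unlike those of cohort 2, and the NR effect in cohort 1 minus that in cohort 2 was 0.96 ± 0.43 (adjusted p = 0.979). For that difference 0 members were called, where 0.137% of 23413 genes were. Ctsh read 19.7 and 18.6 CPM in O-WT, 18.9, 19.6, 21.6 and 18.7 CPM in O-NR, and 24.6, 22.5 and 20.4 CPM in O-NR-RC. Receptor genes summed to between 6377 and 11238 CPM in this cohort, above every library of cohort 2 on a scale set separately. When both cohorts were fitted together (14 HSC libraries), 0 members were called, where 0.103% of 23413 genes were, and none had an unadjusted p below 0.05.

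Of the further lysosomal genes, 2 of 118 were called with NR in GMPs at an unadjusted p below 0.01, where 0.986% of all genes were, and 0 of 126 in CLPs, where 0.412% were. Counts this small do not set the lists apart from all genes. Pla2g15, a lysosomal phospholipase, was at 37.8 ± 2.61 CPM in O-WT GMPs and 30.6 ± 3.64 in O-NR GMPs (−0.31 ± 0.09, adjusted p = 0.905). Zkscan3, a zinc finger protein known as a repressor of lysosomal genes, was at 57.8 ± 6.07 and 45.6 ± 6.35 CPM (−0.35 ± 0.10, adjusted p = 0.905). The groups overlapped for both.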

How the data were processed

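Total RNA of sorted HSCs, CLPs and GMPs was sequenced in 33 libraries, 24 of cohort 2 and 9 HSC libraries of cohort 1. The authors trimmed reads with cutadapt, aligned them with STAR to mm10 (Gencode M22) and used featureCounts to obtain the deposited values, raw gene counts per library. Groups came from the sample labels.

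Genes above 3 CPM in a number of libraries equal to the smaller group of the fit were tested with edgeR's quasi-likelihood test (R 4.3.3, edgeR 4.0.16, limma 3.58.1) after TMM scaling. Cell types were compared within each treatment over 12 libraries at an adjusted p below 0.05. NR was compared within each cell type at an unadjusted p below 0.01, the study's thresholds, and cohort 1 as 9 libraries. Differences in the NR effect were interaction terms. Printed CPM are TMM-scaled. Fits were tested on simulated counts. DESeq2 1.42.0, other scalings and filters, and a replicate block were alternatives.

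Members and gene lists were chosen with earlier results of these data known. All members are given by role, with values in every library for those called with NR and for the 8 with the widest range between O-WT cell types. Per further list the 2 most changed genes against GMPs and those called with NR in GMPs are named, with Ctss, Psap and cohort 1 values added after seeing the data. Where separate mice are assumed but not stated, p-values may measure technical spread. Of 46 pairs of libraries of one group, none agreed within sampling noise (smallest chi-square per degree of freedom 1.96). Libraries of the 3 cell types are paired by animal numbers in the names of the deposited tables, though they did not deviate together (mean correlation −0.02 in O-WT). O-WT and O-NR libraries share only a replicate number. One result of a further gene in HSCs is not reported here.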

Additional observations from a re-analysis of the deposited data

Results flagged for a closer look

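Within groups of 4 libraries, 15 of 224 sets of values (6.7%) held 1 library whose gap to its nearest neighbour exceeded Dixon's critical value at the 95% level, where chance gives about 1 in 20. GMP O-NR replicate 4 held 8 of the 15. Its Lamp1 was at 275.9 CPM (others 186 to 190.4), Cln3 at 13.4 CPM, Ctsc at 68.3 CPM, Ctsh at 57.9 CPM, Ctss at 38.8 CPM, Npc2 at 102 CPM and Psap at 310.4 CPM, all above the other 3 libraries, and Ppt1 at 66.3 CPM was below them. HSC O-WT replicate 1 stood above the others for Lamp2 (133 CPM) and Arsa (23.4 CPM), and HSC O-NR replicate 2 below them for Npc1 (28.8 CPM) and Ctss (1.57 CPM). CLP O-WT replicate 3 was low for Atp6ap1 (16.1 CPM), GMP O-NR replicate 1 high for Arsa (18.1 CPM), and replicate 4 of the O-NR HSCs of cohort 1 high for Galc (69.3 CPM).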

How the results depend on the processing

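Counts of members called between cell types stayed within 1.5 times their value under every alternative. Leaving out 1 library at a time, they ranged from 14 to 20 (HSCs against CLPs), 19 to 24 (HSCs against GMPs) and 24 to 27 (CLPs against GMPs) in O-WT, and from 16 to 21, 21 to 23 and 25 to 27 in O-NR. With the replicate number as a block, which joins the cell types of a mouse, they were 17, 23 and 27 in O-WT and 18, 23 and 25 in O-NR. In CLPs, 2 members were called with NR, Ctsh and Arsb, under upper quartile scaling, library totals, DESeq2, the replicate block and the receptor gene covariate (added after seeing the data), and 0 to 2 with a library left out. In GMPs, 1 was called without a filter and 0 to 3 with a library left out. The covariate also called 1 member, Sgsh, for O-NR-RC against O-NR in cohort 1 (0.32). The difference in the NR effect between HSCs and CLPs called 1 member, Arsb, under upper quartile scaling and library totals. Between CLPs and GMPs of O-WT mice, the log2 fold change of Tpp1 reversed to 0.0199 (upper quartile) and 0.0521 (library totals) and that of Scarb2 to 0.0531 (covariate), and in O-NR mice that of Tpp1 to 0.0176 and of Scarb2 to 0.0017 (both upper quartile). The causes were not tested. With the longest transcript in place of all exons, Lamp1 and not Ctsz led in GMPs. The lowest were then Gla in CLPs and Sgsh in GMPs, and not Galc. Groups of 2 to 4 libraries limit what could be called.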
